A study of Mus musculus with 10 samples.

Results

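The mitochondrial ribosome builds the few proteins that are encoded by mitochondrial DNA, and its protein parts and helper factors are encoded in the nucleus. The genes described here are those whose symbol starts with Mrpl or Mrps and a digit (proteins of the large and the small subunit), together with Tufm, Tsfm, Gfm1, Gfm2, Mtif2, Mtif3 and Mrrf, which encode factors that start, extend or end a round of mitochondrial translation. They were found through the gene symbols of the array's annotation, counting only probes with 1 symbol, and where a gene had 2 probes the brighter over the 10 arrays stood for it. This gave 70 genes (42 of the large subunit, 23 of the small subunit and 5 factors) of the 13840 genes that the annotation named in this way, out of 33012 probes in all. A RefSeq table of the mouse genome holds 85 protein-coding genes under the same symbols, and the other 15, among them Gfm1, Tsfm, Mrpl12, Mrps18a and Mrps18c, were not analysed here.

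The products of the mitochondrial ribosome are membrane subunits of the respiratory chain, and the complexes they join also need subunits made in the cytosol, so 2 ribosome systems supply 1 set of enzymes. Most proteins numbered up to Mrpl36 and Mrps21 are named after a bacterial ribosomal protein, and those with higher numbers were mostly added in the evolution of mitochondria. Photoreceptors of the retina carry a dense group of mitochondria in the inner segment and are among the cells with the highest demand for oxidative energy, whereas the newborn cortex is a growing tissue.

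Single-channel Applied Biosystems arrays were hybridised with 2 RNA pools, as part of a comparison of array platforms. The 5 retina arrays carried RNA of adult C57/B6 mice (a pool of 350 mice) and the 5 cortex arrays RNA of mice at postnatal day 1 (a pool of 19 mice), given as Swiss-Webster in the series text and as C57/B6 in the sample descriptions. The 5 arrays of a tissue repeat 1 pool, so every SD and p-value below measures the spread between arrays and not between animals, and tissue cannot be told apart from age or, if the series text holds, from strain. In pooled tissue, fewer cells of a type and less RNA per cell cannot be told apart. The tissue labels fitted their markers: the 5 measured photoreceptor and bipolar cell genes (Gnat1, Pde6b, Crx, Nrl, Grm6) were higher in retina by 6.60 to 10.80 on the log2 scale, and the 5 measured cortical genes (Tbr1, Neurod6, Bcl11b, Dcx, Dlx1) differed by -4.92 to -8.18. The retina RNA also carried the 3 genes listed for the pigment epithelium, with a summed intensity of 84700 to 99300 per array against 657 to 2080 in cortex. It carried the 2 crystallin genes listed for the lens, Cryaa and Cryba1 (54900 to 65100 against 337 to 909), which alone do not show lens tissue. The cortex RNA carried more of the 2 red blood cell genes (124000 to 161000 against 32900 to 40400) and of the 3 connective tissue genes (78900 to 86100 against 4260 to 5080). No marker of these lists was at 0, but every deposited intensity was above 0, so this does not show that a marker was detected. Whether these lists stand for cells carried along, and the part of such cells in the results below, was not tested.

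The comparison of retina with cortex asks how far the 2 RNAs differ. Values are log2 intensities after quantile normalization, which gives all 10 arrays 1 distribution, and each difference is retina minus cortex with the standard error (SE) of limma. A gene was called when its adjusted p, by limma with Benjamini-Hochberg adjustment over all 33012 probes, fell under 0.05 and its fold was 2 or more. By this rule 5 of the 70 genes were higher in retina (Mrpl49, Mrpl48, Mrpl54, Mrpl51 and Mrpl2) and 2 were lower (Mrps15 and Mrpl21), which is 10% of the genes, against 25.4% of all probes (12.1% higher and 13.3% lower) and 28.9% of the probes with 1 symbol. Without the 2-fold minimum, 51 of the 70 passed the adjusted p (72.9%, against 47.6% of all probes), 28 of them with the higher mean in retina and 23 with the higher mean in cortex (22.5% and 25% of all probes). This split moved with the scaling of the arrays: it was 11 and 42 without normalization (13.7% and 38.2% of all probes) and 37 and 16 with each array centred on its median (25.5% and 22.2%).

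So most of these transcripts differed between the tissues by a small and repeatable amount. The median difference was 0.07, with the middle of the genes between -0.28 and 0.43 (quartiles), and the median size of a difference regardless of sign was 0.38, against 0.52 over all probes. For 56 of the 70 genes (80.0%, against 40.3% of all probes) the whole 95% interval of the difference lay inside 2-fold in either direction. The 5 retina values lay all above or all below the 5 cortex values in 46 genes (65.7%, against 40.5% of all probes), 26 above and 20 below. The probes were bright, with a median at the 90.7th percentile of mean intensity, and their median SD over repeat arrays was 0.104 in retina and 0.0835 in cortex, against 0.332 and 0.281 over all probes. Many of all probes were dim in both tissues (16992 of 33012). Among probes with 1 symbol, 44.5% lay inside 2-fold and 50.1% had no overlap. Other bright lists, the respiratory chain and the cytosolic ribosome (below), were alike: 83.9% and 90.3% inside 2-fold, and 67.7% and 66.1% without overlap. These traits are thus not particular to the 70 genes.

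**Figure D1:**
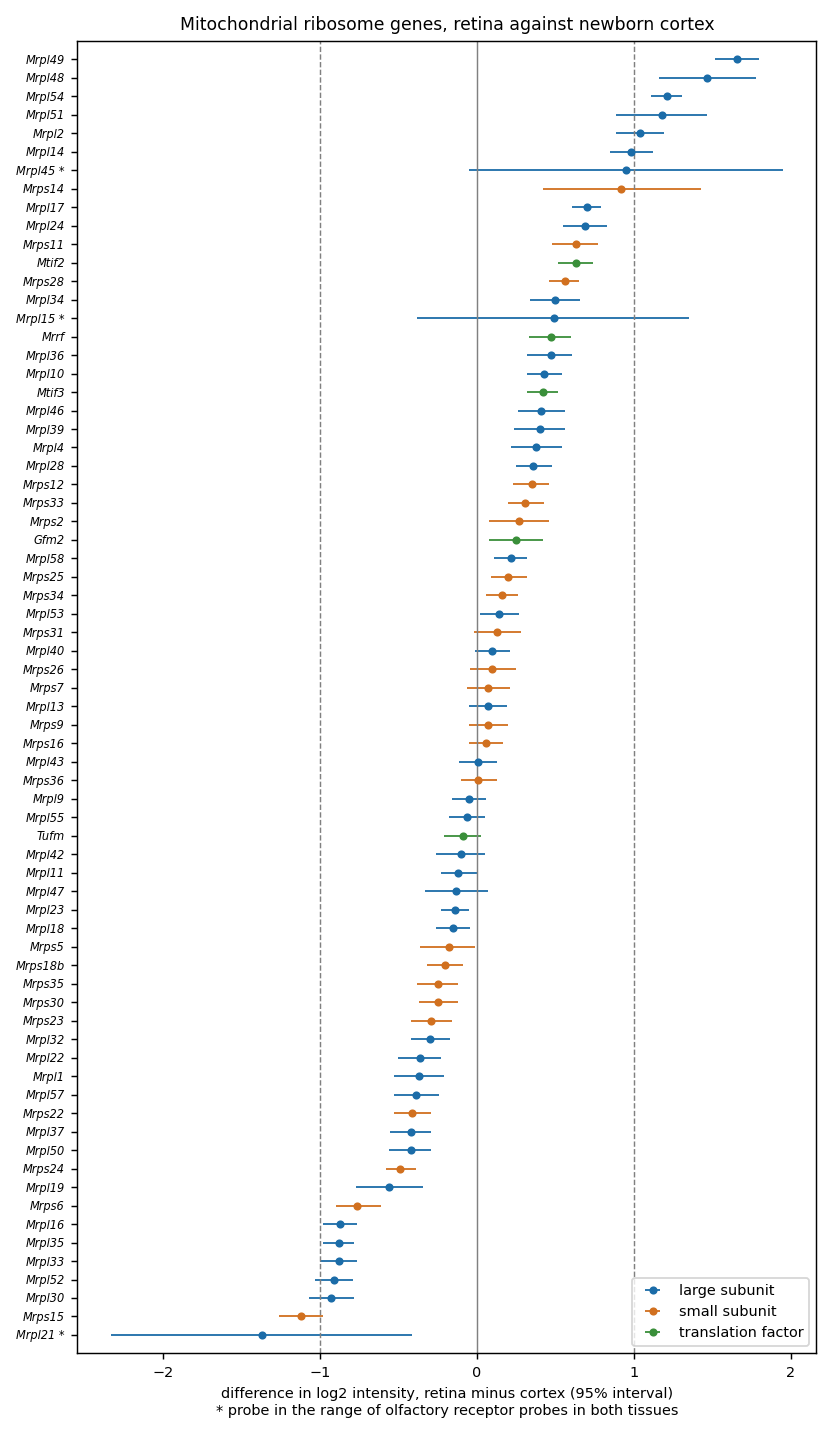
Difference in normalized log2 intensity, retina minus cortex, of the 70 genes (x axis) in order of size, with 95% intervals, coloured by subunit or factor. Dashed lines mark 2-fold in either direction, and the 3 wide intervals with an asterisk (Mrpl45, Mrpl15, Mrpl21) are probes as dim as most olfactory receptor probes in both tissues.

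All 5 genes that were higher by the 2-fold rule encode proteins of the large subunit. Mrpl49 (probe 897491), a protein without a bacterial relative by its number, had the widest margin. It read 16.25, 16.13, 16.04, 16.05 and 15.90 on retina arrays 1 to 5 and 14.54, 14.46, 14.47, 14.30 and 14.30 on cortex arrays 1 to 5. Every retina array lay at least 1 unit above every cortex array, and the means of 16.07 ± 0.13 and 14.41 ± 0.11 (SD, n = 5) differed by 1.66, or 3.16-fold (SE 0.066, limma adjusted p = 9.51e-13). A second Mrpl49 probe (752552) gave 16.13 ± 0.06 and 14.09 ± 0.10, a difference of 2.04 (SE 0.054), so both probes of the gene were called in the same direction.

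Mrpl54, also numbered beyond the bacterial set, read 15.59, 15.61, 15.52, 15.49 and 15.54 in retina and 14.29, 14.35, 14.27, 14.43 and 14.36 in cortex. The groups were far apart for their spread, with a difference of 1.21, or 2.31-fold (SE 0.047, limma adjusted p = 6.57e-13). Mrpl2, a relative of the bacterial protein L2 that sits close to the site where peptide bonds form, read 14.80, 14.76, 14.48, 14.76 and 14.61 against 13.75, 13.68, 13.75, 13.51 and 13.54. Its difference of 1.04, or 2.05-fold (SE 0.072, limma adjusted p = 1.48e-09), lay just inside the 2-fold minimum. 

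Mrpl48 and Mrpl51 were dimmer. Mrpl48, part of the central protuberance of the large subunit, read 11.65, 11.99, 12.06, 12.00 and 12.18 in retina and 10.57, 10.18, 10.73, 10.40 and 10.65 in cortex, a difference of 1.47 (SE 0.15, limma adjusted p = 1.58e-07). Its cortex mean of 10.50 lay below 10.65, the 95th percentile of 747 olfactory receptor probes in cortex, a yardstick for dim signal, so the size of this difference rests on signal not shown to lie above background. Mrpl51 read 12.10, 12.18, 12.00, 12.12 and 11.93 in retina and 11.15, 10.67, 11.18, 10.58 and 10.82 in cortex, a difference of 1.18 (SE 0.14, limma adjusted p = 9.99e-07). Its cortex mean of 10.88 lay only a little above this yardstick, with cortex array 4 below it, so nearly the same limit holds. The 5 retina arrays of both genes lay above the 5 cortex arrays.

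**Figure D2:**
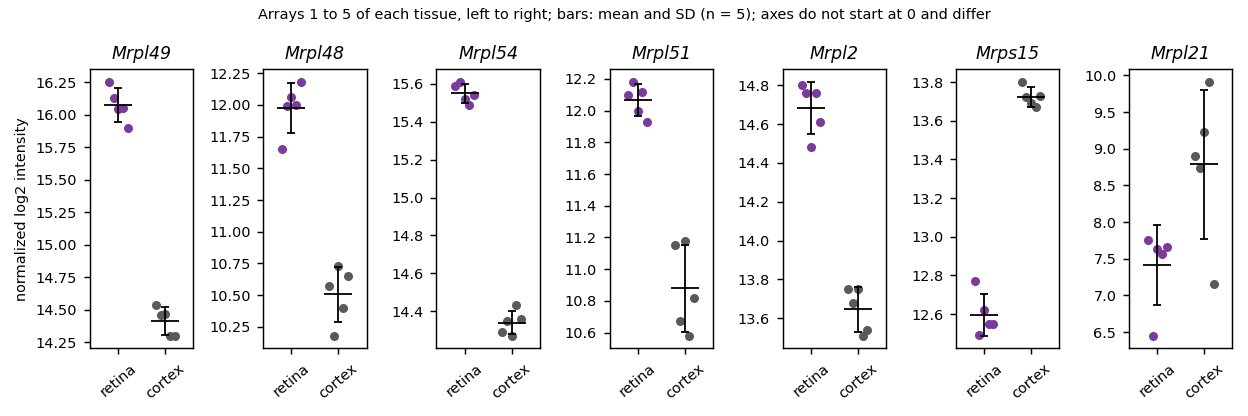
Normalized log2 intensity (y axis, a separate range for each gene) on the 5 retina and 5 cortex arrays for the 7 genes past the 2-fold rule, with mean and SD (n = 5). The tissues are fully separated in 6 of the genes; in Mrpl21 cortex array 5, at 7.15, falls among the retina arrays.

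Of the 2 genes called lower, Mrps15 had clear signal in both tissues. It encodes the relative of bacterial S15, which binds the RNA of the small subunit early in its assembly. The retina arrays read 12.77, 12.49, 12.62, 12.55 and 12.55 and the cortex arrays 13.80, 13.72, 13.69, 13.67 and 13.73. No value of one tissue came near the other, and the difference was -1.12 (SE 0.065, limma adjusted p = 1.6e-10). Mrpl21, by contrast, was dim in both tissues, at 7.76, 6.45, 7.63, 7.57 and 7.66 in retina and 8.90, 8.74, 9.23, 9.91 and 7.15 in cortex. The groups overlapped, and the difference of -1.37 (SE 0.45, limma adjusted p = 0.0186) lost its call without retina array 2 (-1.13, adjusted p = 0.0582), without cortex array 4 (-1.09, adjusted p = 0.0553), with 200 intensity units added before the log (-0.84), and when tested against 1.5-fold (limma's treat, adjusted p = 0.179).

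Several more genes of the large subunit differed by less than 2-fold with tight replicates. On the retina side, Mrpl14 averaged 16.28 ± 0.16 over the retina arrays and 15.30 ± 0.05 over the cortex arrays (SD, n = 5). It was 0.98 apart (SE 0.064) and passed the 2-fold rule without retina array 2 (1.04). Mrpl17 (0.70, SE 0.043) and Mrpl24 (0.69, SE 0.066) followed. On the cortex side, 5 genes formed a close group: Mrpl30 (-0.93, SE 0.068), Mrpl52 (-0.91, SE 0.055), Mrpl33 (-0.88, SE 0.057), Mrpl35 (-0.88, SE 0.047) and Mrpl16 (-0.87, SE 0.052). Mrpl52, for instance, read 15.86, 15.95, 16.00, 15.95 and 15.98 in retina and 16.81, 16.74, 16.80, 17.03 and 16.89 in cortex. In these 8 genes, named for their margins and tight replicates, the arrays of the tissues did not overlap, as in 40.5% of all probes. By the limma adjusted p alone, 16 of the 42 genes of the large subunit passed with the higher mean in retina. Another 15 passed with the higher mean in cortex (22.5% and 25% of all probes). In all 73.8% passed, against 47.6% of all probes, and 11 genes did not pass.

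The large subunit was divided by number. Of its 24 genes numbered up to 36, 1 was called higher and 1 lower (8.33% called), with a median difference of -0.08. Of its 18 genes with higher numbers, 4 were called higher and none lower (22.2% called), with a median of 0.12. Of all probes 25.4% were called, 12.1% higher and 13.3% lower. Whether these groups differ was not tested, since genes are not replicates.

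In the small subunit, none of the 23 genes was called higher and Mrps15 alone was called lower (4.35% called, against 25.4% of all probes). By the limma adjusted p alone 8 passed in each direction (69.6% in all, against 47.6%). The median difference was 0.07, and 21 of the 23 intervals lay inside 2-fold. After Mrps15, the widest margin on the cortex side was that of Mrps6, at 15.24, 15.16, 15.19, 15.59 and 15.34 in retina and 15.99, 16.03, 16.08, 16.11 and 16.08 in cortex (-0.76, SE 0.068). Mrps24, the relative of bacterial S3 despite its number, was at -0.49 (SE 0.045), and Mrps22, in which mutations cause mitochondrial disease in humans, at -0.41 (SE 0.057). 

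On the retina side of the small subunit, Mrps14 read 11.26, 11.15, 11.12, 10.82 and 10.81 in retina and 10.69, 9.72, 10.39, 9.40 and 10.34 in cortex. The arrays did not overlap, but the cortex mean of 10.11 was again in the dim range, and the difference of 0.92 (SE 0.24) passed 2-fold without cortex array 1 (1.07). Mrps11 (0.63, SE 0.069) and Mrps28 (0.56, SE 0.046) came next. Mrps12, the relative of the bacterial S12 protein of the decoding centre, was at 0.35 (SE 0.054). Mrps18b read 15.15, 15.36, 15.39, 15.33 and 15.20 in retina and 15.47, 15.44, 15.43, 15.53 and 15.57 in cortex, a small difference of -0.20 (SE 0.054, limma adjusted p = 0.00513) with the arrays of cortex all above those of retina.

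The brightest probe of the genes, Mrps33 probe 896827, read 17.10, 17.18, 16.92, 17.05 and 17.00 in retina and 16.80, 16.74, 16.80, 16.67 and 16.69 in cortex, a difference of 0.31 (SE 0.053, limma adjusted p = 8.89e-05). A second Mrps33 probe (557165) gave 12.35 ± 0.12 and 11.03 ± 0.24, a difference of 1.32 (SE 0.12) that was past the 2-fold rule. The probes of this gene disagreed on the size and the call, and without normalization also on the direction (-0.10 for probe 896827 and 0.86 for probe 557165). The dimmest, Mrpl15, read 7.33, 6.09, 8.98, 7.54 and 7.99 in retina and 6.67, 7.37, 6.95, 7.26 and 7.25 in cortex. It was below the olfactory receptor yardstick in both tissues (10.77 in retina, 10.65 in cortex), as were Mrpl45, which helps to hold the ribosome at the inner membrane, and Mrpl21. Nothing can be read from the uncalled values of Mrpl15 (0.49, SE 0.41) and Mrpl45 (0.95, SE 0.47).

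Of the 5 translation factors, none was called, and 4 passed the limma adjusted p with the higher mean in retina, where 25.4% of all probes were called and 22.5% passed in that direction. Without normalization Mtif2 alone of these 4 still passed (0.24), with Mtif3 at 0.03, Mrrf at 0.09 and Gfm2 turned to -0.13. Mtif2, which brings the first tRNA to the small subunit, read 14.82, 14.96, 14.78, 14.79 and 14.86 in retina and 14.22, 14.25, 14.31, 14.10 and 14.19 in cortex, a difference of 0.63 (SE 0.053). Mtif3, which keeps the subunits apart before initiation, read 14.35, 14.40, 14.49, 14.35 and 14.42 against 13.94, 13.97, 14.00, 14.02 and 13.99, a difference of 0.42 (SE 0.048). The retina arrays of both initiation factors lay above their cortex arrays. 

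Within arrays, Mtif2 minus Mtif3 had a mean of 0.44 ± 0.09 over the retina arrays and 0.23 ± 0.09 over those of cortex (SD, n = 5). The tissue difference was thus larger for the Mtif2 probe by 0.21 (exact 2-sided permutation p = 0.0159, over all ways to assign the arrays, which cannot go below 0.00794). With 1 probe per gene, this p-value does not measure the spread between probes. The 2 probes of Mrpl49 (1.66 and 2.04) and of Mrps33 (0.31 and 1.32) lay further apart, so a difference between the genes cannot be read from it. The contrast with Mtif3 was planned. Mtif2 and Mtif3 were the only one of 7 planned pairs of paralogs or partners with both genes measured.

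Mrrf, the factor that splits used ribosomes, read 14.37, 14.53, 14.46, 14.42 and 14.25 in retina and 13.96, 14.00, 14.01, 13.78 and 13.95 in cortex (0.47, SE 0.062). Gfm2, an elongation factor G that works with Mrrf in recycling, read 13.04, 13.07, 12.85, 12.91 and 12.93 against 12.79, 12.83, 12.81, 12.49 and 12.63 (0.25, SE 0.080). Both were separated between tissues, Gfm2 by a narrow gap. Tufm, the elongation factor that carries tRNAs to the ribosome, read 15.67, 15.60, 15.52, 15.46 and 15.51 in retina and 15.76, 15.67, 15.60, 15.50 and 15.66 in cortex. Its groups overlapped, and the difference of -0.09 (95% interval -0.21 to 0.03) did not pass (limma adjusted p = 0.211).

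In all, 19 of the 70 genes did not pass the adjusted p. For the 17 of these outside the dim range, the intervals reached no further than 0.36 from 0. Mrpl43 (0.01, 95% interval -0.11 to 0.13) and Mrps36 (0.01, -0.10 to 0.13) were nearest to 0, and Mrps36 has since been described as a part of the 2-oxoglutarate dehydrogenase complex rather than of the ribosome. Mrps16 (0.06), Mrpl13 (0.07), Mrps7 (0.07), Mrps9 (0.07), Mrpl9 (-0.05), Mrpl55 (-0.06) and Mrpl11 (-0.12), the last a protein at the base of the stalk where factors bind, were also among these 17. Mrpl10, the stalk protein beside it, was at 0.43 (SE 0.052).

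The direction of the small differences rests on the scaling of the arrays. As deposited, the median intensity was lower on the retina arrays (9.71 to 9.95 on the log2 scale) than on the cortex arrays (10.29 to 10.39). Without normalization the median difference over all probes was -0.41 and that of the 70 genes -0.31, 19 of the genes changed the sign of their difference, and calls fell to 1 higher (Mrpl49, 1.28) and rose to 8 lower, against 7.49% and 23.1% of all probes. The 8 lower genes were Mrpl21, Mrps15, Mrpl52, Mrpl30, Mrpl33, Mrpl16, Mrpl35 and Mrps6. With each array centred on its median, the values were 0.13 over all probes and 0.23 for the genes, with 6 higher and 1 lower (13.8% and 12% of all probes). The share of higher genes among those called was 71.4% after quantile normalization, 11.1% without normalization and 85.7% after centring. Mrpl49 and Mrps15 were at 1.28 and -1.51 without normalization and at 1.82 and -0.97 after centring. With 200 intensity units added before the log, 5 genes were higher and 1 lower, against 10.3% and 11.3% of all probes. At a 1.5-fold minimum, 11 were higher and 8 lower (17.2% and 19% of all probes), and when the test itself was set against 1.5-fold (limma's treat), 7 and 7 (11.8% and 13%).

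**Figure D3:**
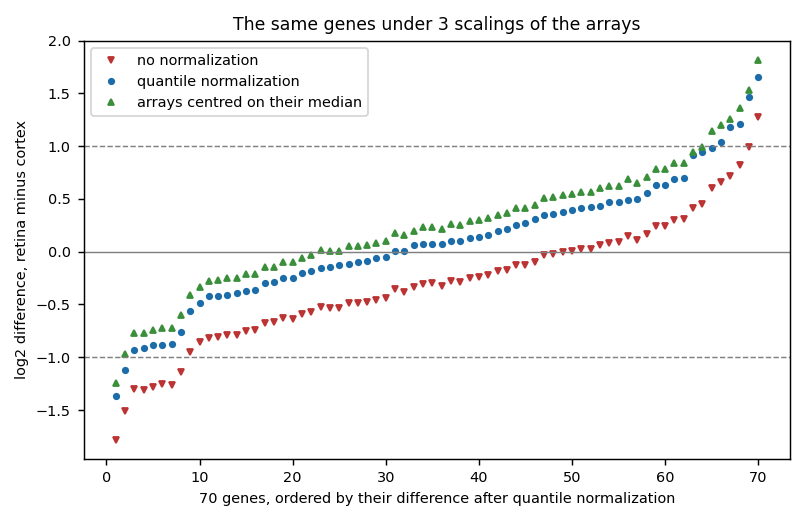
Log2 difference of each of the 70 genes (y axis) under quantile normalization, no normalization and centring of each array on its median, with the genes in 1 order (x axis). The series of points run nearly parallel, with medians of 0.07, -0.31 and 0.23, so the scaling moves the genes together and changes which of them pass the dashed 2-fold lines.

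The promoters of these genes were searched for sequence motifs, which the choice of genes did not use, and no motif was found in more than 22 of 61 genes. RefSeq windows (build GRCm38.p6) of 250 bases before and 50 after a transcript start were at hand for 61 of the 70 genes, and each gene was scored over all its windows, on both strands. The letters CCGGAAG, a core to which ETS factors such as GABPA (nuclear respiratory factor 2) can bind, stood in 22 of the 61 (36.1%), against 14.4% of the 11164 array genes with a window and 8.86% of all 32851 windows. A match to the palindromic core of the sites of NRF1 stood in 11 (18%, against 8.30% and 4.60%), and AAGATGGCG, as in sites of YY1, in 6 (9.84%, against 2.52% and 1.40%). TATAAA stood in 4 (6.56%, against 14.0% and 13.6%). A match is a run of letters and not a measured site. The ETS and YY1 letters can overlap by AAG.

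The stretches before the start of 4 genes show these features beside the values above, with matches to the first 3 motifs in capitals. Mrpl49 shares its upstream stretch with Fau and holds no match, Mrpl51 and Mrpl52 hold the ETS letters and differ in opposite directions, and Mrpl17 holds both the ETS and the NRF1 letters.
Mrpl49 (chr19:6057756-6057946, minus strand): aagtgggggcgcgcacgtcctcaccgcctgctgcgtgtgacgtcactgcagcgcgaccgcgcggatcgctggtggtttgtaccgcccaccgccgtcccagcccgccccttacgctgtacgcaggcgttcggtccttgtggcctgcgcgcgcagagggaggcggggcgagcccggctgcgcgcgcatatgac
Mrpl51 (chr6:125191950-125192199, plus strand): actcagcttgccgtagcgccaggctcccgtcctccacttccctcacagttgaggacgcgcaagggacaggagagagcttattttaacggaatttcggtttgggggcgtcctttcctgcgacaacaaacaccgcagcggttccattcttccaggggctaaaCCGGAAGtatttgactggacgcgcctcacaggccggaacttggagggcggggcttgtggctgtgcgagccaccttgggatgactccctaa
Mrpl52 (chr14:54426659-54426908, plus strand): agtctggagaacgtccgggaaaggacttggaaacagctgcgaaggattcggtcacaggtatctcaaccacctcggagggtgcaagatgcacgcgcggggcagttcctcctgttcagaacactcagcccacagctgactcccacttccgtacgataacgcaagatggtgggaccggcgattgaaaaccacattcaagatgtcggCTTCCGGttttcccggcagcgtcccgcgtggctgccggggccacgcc
Mrpl17 (chr7:105811088-105811337, minus strand): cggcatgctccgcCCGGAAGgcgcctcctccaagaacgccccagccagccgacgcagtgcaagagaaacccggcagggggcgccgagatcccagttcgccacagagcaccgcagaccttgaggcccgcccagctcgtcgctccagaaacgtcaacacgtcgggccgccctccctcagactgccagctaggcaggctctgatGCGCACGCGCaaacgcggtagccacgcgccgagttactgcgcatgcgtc
In Mrpl51 the match begins 90 bases before the start, in Mrpl52 47 bases before it on the other strand, and in Mrpl17 237 bases (ETS) and 49 bases (NRF1) before it. Over the genes, those with the ETS letters had a median difference of 0.04 (n = 22) and those without of 0.07 (n = 39), those with and without the NRF1 letters had medians of 0.10 (n = 11) and 0.01 (n = 50), and those with and without the YY1 letters of -0.26 (n = 6) and 0.07 (n = 55). 

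Many of the genes also start head to head with a neighbour. In 23 of the 61 (37.7%), another gene started within 1000 bases upstream on the opposite strand, against 14.6% of the array genes. The neighbour was measured for 17 of the 23. Mrpl46 and Mrps11 are each other's neighbour, with starts 42 bases apart, and the bases between them are these.
Mrps11 side (chr7:78783090-78783130, plus strand): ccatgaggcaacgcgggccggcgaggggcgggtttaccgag
Both had the higher mean in retina, by 0.41 (SE 0.069) for Mrpl46 and 0.63 (SE 0.069) for Mrps11, short of 2-fold, and after no normalization by 0.03 and 0.24. Of the 15 other neighbours, 1 was called higher and 4 lower (33.3%, against 25.4% of all probes), with a median of -0.18.

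In 10 of these 15 pairs the differences of gene and neighbour had the same sign and in 5 the opposite sign. No like count over other genes of the array was made, and some signs turned with the scaling. Without normalization Fau was at -0.38 beside Mrpl49 at 1.28, so that pair became opposite. Gfm2 was then at -0.13 beside Nsa2 at -1.59, so that pair became alike. The count thus holds for quantile normalization only and does not show agreement between neighbours. The pairs below were chosen after their values were seen. Fau, whose product is a ubiquitin-like protein fused to the cytosolic ribosomal protein S30, starts 192 bases from Mrpl49 and was at 15.65 ± 0.07 in retina and 15.63 ± 0.06 in cortex (0.02, SE 0.049), beside 1.66 for Mrpl49. Ncapd2, a condensin subunit of dividing cells, was lower in retina (-1.40, SE 0.099) while Mrpl51 was higher (1.18). Hira, a histone chaperone gene, was lower (-1.37, SE 0.14) beside Mrpl40 (0.10, SE 0.051), as was Nsa2 (-1.21, SE 0.060), a factor of cytosolic ribosome assembly, beside Gfm2. Klc4, a kinesin light chain gene, was higher (2.14, SE 0.066) beside Mrpl2 (1.04). The seryl-tRNA synthetase gene of mitochondria, Sars2, was at 0.96 (SE 0.072) beside Mrps12 (0.35).

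Other genes of mitochondrial gene expression were read from lists chosen by function. Of 19 measured genes of mitochondrial ribosome assembly, 1 was called higher and 2 lower (15.8%, against 25.4% of all probes), with a median of 0.23. Nsun4, an RNA methyltransferase needed to join the subunits, was at 14.58 in retina and 12.50 in cortex (2.09, SE 0.064). Rbfa, which matures the small subunit (-1.35, SE 0.10), and Mrm1, which methylates the large ribosomal RNA (-1.30, SE 0.12), were lower. Of 16 measured mitochondrial tRNA synthetase and amidotransferase genes, only Aars2 was called (1.30, SE 0.098), which is 6.25% against 25.4% of all probes. By the limma adjusted p, 11 passed with the higher mean in retina and 1 in cortex (median 0.31), where 22.5% and 25% of all probes did. Of 11 genes of mitochondrial DNA transcription and replication, 2 were higher and none lower (18.2% called, against 25.4% of all probes, of which 12.1% higher). They were Polg2, the accessory subunit of the DNA polymerase (4.04, SE 0.065), and Ssbp1, the single-strand binding protein (1.80, SE 0.29, with a dim cortex mean of 9.59).

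The 4 measured subunit genes that carry other symbols differed by little: Dap3 (-0.52, SE 0.06), Ptcd3 (-0.44, SE 0.069), Chchd1 (-0.23, SE 0.061) and Gadd45gip1 (0.36, SE 0.073). Of 6 genes of release, formylation and membrane insertion none was called, against 25.4% of all probes, but 4 of the 6 were dim in both tissues. Among 7 regulators of mitochondrial biogenesis, Ppargc1b (3.34, SE 0.066), Esrra (1.19, SE 0.064) and Gabpa (1.15, SE 0.21, with a dim cortex mean of 10.61) were higher and Myc (-5.27, SE 0.10, with a dim retina mean of 9.83) was lower, 4 of 7 against 25.4% of all probes. Of 11 genes listed as a measure of mitochondrial content, 1, the import receptor gene Tomm20, was higher (1.41, SE 0.052), which is 9.09% called, against 25.4%. By the limma adjusted p, 2 passed with the higher mean in retina, Tomm20 and Vdac1 (0.93, SE 0.059). Another 8 passed with the higher mean in cortex, where 22.5% and 25% of all probes passed in these directions. The median was -0.47, but the members went both ways, so mitochondrial content cannot be read from it.

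By median, the ribosome genes of mitochondria lay between those of the respiratory chain and the cytosolic ribosome. The lists of the respiratory chain and the cytosolic ribosome went by symbol prefix. They also took in Ndufs5-ps, by its symbol a pseudogene, and Rps19bp1, by its symbol a binding protein of a ribosomal protein. Of the 62 measured entries of the respiratory chain list, 6 were higher and none lower (9.68% called, against 25.4% of all probes). Of the 6, Cox8b and Cox4i2 had a dim cortex mean and Sdhb was dim in both tissues. By the limma adjusted p, 38 passed with the higher mean in retina and 9 in cortex (22.5% and 25% of all probes), and the median was 0.33. Of the 62 entries of the cytosolic ribosome list, 1 was higher, Rpsa, which was dim in both tissues, and 1 lower, Rplp0 (3.23% called, against 25.4%). By the adjusted p, 9 passed with the higher mean in retina and 35 in cortex, and the median was -0.23. The 70 genes had 28 and 23 and a median of 0.07, a split that holds for quantile normalization only, as given above. Without normalization the medians were -0.12, -0.75 and -0.31 in the same order of respiratory chain, cytosolic ribosome and mitochondrial ribosome. The lists were not tested against each other.

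**Figure D4:**
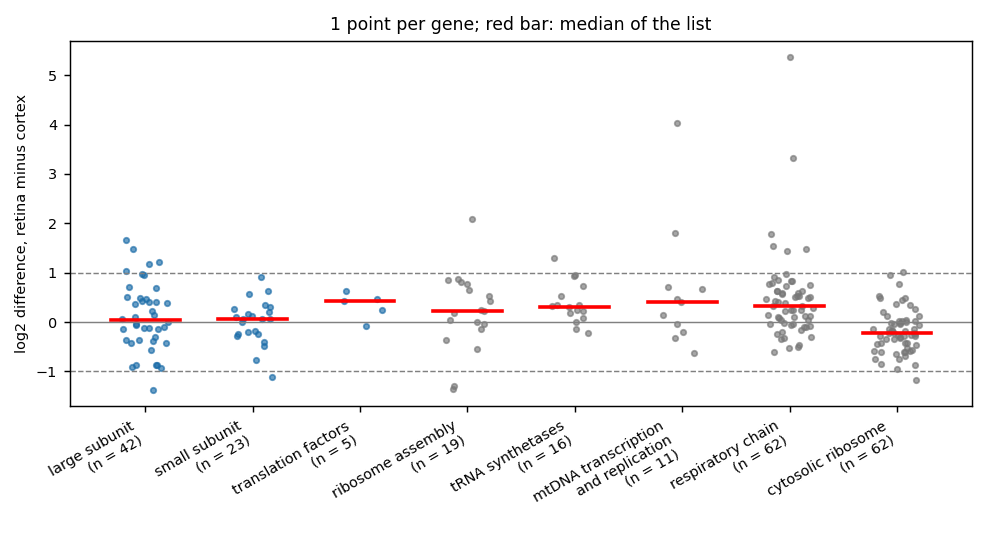
Log2 difference, retina minus cortex (y axis), of each gene in the large subunit, small subunit and factors of mitochondrial translation (blue) and in the lists for ribosome assembly, tRNA synthetases, mitochondrial DNA transcription and replication, respiratory chain and cytosolic ribosome (grey), with the median of each list in red and dashed lines at 2-fold. The medians of these plotted lists run from 0.42 for the translation factors and 0.33 for the respiratory chain to 0.04 for the large subunit and -0.23 for the cytosolic ribosome.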

How the data were processed

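The table deposited by the authors holds 1 positive linear intensity per probe and array. Per the labels, 1 µg of total RNA from 2 pools was turned into digoxigenin-labelled cRNA. Background correction, normalization and detection calls are not given in the sources used here. Array medians spanned 0.682 on the log2 scale, so log2 intensities were quantile-normalized. Retina and cortex were compared with limma 3.58.1 in R 4.3.3 (2-sided, eBayes fitting a trend on intensity, Benjamini-Hochberg adjustment over 33012 probes). The fit was tested on simulated data. Of the probes, 14411 had 1 symbol, 247 several and 18354 were not listed in the annotation; all 70 genes matched the RefSeq table by Entrez ID and symbol. The probe with the highest mean log2 of the deposited intensities stood for a gene.

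Members and gene lists were chosen with earlier results of these data known. All members could be named; values per array were due for the 6 called genes with the largest differences in each direction (5 and 2 were called), the translation factors, Mrps18b and the members with the highest and lowest mean, and are given for a few more, chosen after their values were seen. In related lists, up to 3 called genes per direction are named, and further genes as examples chosen after their values were seen. Dimness was judged by the 95th percentile of 747 olfactory receptor probes, a yardstick taken up with the data known. Same-numbered arrays did not deviate together (correlations -0.02 to 0.029, with 0.1 needed), so replicate numbers were not treated as pairs. No 2 arrays held identical values. For arrays, their number limits the precision. Alternatives covered scaling, an offset, the variance model, thresholds, dim probes, the choice of probe, a replicate block and leaving out each array.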

Additional observations from a re-analysis of the deposited data

Results flagged for a closer look

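In 140 groups of 5 arrays (70 genes in 2 tissues), 8 groups had 1 array set apart from the other 4, judged by its gap to the nearest value as a share of the range (above 0.71); about 1 group in 20 does so by chance. In retina, array 3 stood apart in 3 genes: Mrpl1 at 12.46 (others 12.63 to 12.66), Mrpl50 at 15.69 (15.37 to 15.42) and Mrpl53 at 15.39 (15.16 to 15.22). Retina array 2 was at 6.45 in Mrpl21 (7.57 to 7.76). In cortex all 4 were on array 4: Mrpl10 at 14.76 (14.87 to 14.91), Mrpl46 at 14.43 (14.74 to 14.80), Mrpl57 at 17.10 (16.79 to 16.82) and Mrrf at 13.78 (13.95 to 14.01). Of these genes only Mrpl21 had a call to lose, and it lost that call when the array was left out.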

How the results depend on the processing

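After quantile normalization 5 genes were higher and 2 lower. The same 7 genes were called without an intensity trend, with robust eBayes, with the mean of a gene's probes, and with the replicate number as a block (replicate block, 5 higher and 2 lower); the block changed no call. Mrpl49 was called under each alternative. Without normalization 1 gene was higher and 8 lower (large subunit 1 and 6, small subunit 2 lower; numbers shared with bacteria 0 and 7, higher numbers 1 and 1; median -0.31), and 3 of the 7 calls were shared with the main result. With median centring the members called lower were 1 (small subunit 0; shared numbers 2 higher and 1 lower; median 0.23). With the offset, and with only the brighter probes tested, 1 was lower (large subunit 0, shared numbers 1), since Mrpl21 fell out or was not tested. Using the dimmest probe, 1 gene of the small subunit (Mrps33) was higher. Against 1.5-fold with treat, 7 were higher and 7 lower (lower: large subunit 5, small subunit 2, shared numbers 6, higher numbers 1; shared numbers higher 3). With a 1.5-fold minimum, 11 were higher and 8 lower (large subunit 8 and 6, small subunit 2 and 2, factors 1 higher, shared numbers 6 and 7, higher numbers 1 lower), where 17.2% and 19% of all probes were. With no minimum, 28 were higher and 23 lower (16 and 15, 8 and 8, factors 4 higher, shared numbers 13 and 14, higher numbers 11 and 9). Leaving out 1 array, members called higher ranged from 5 to 7 and lower from 1 to 2 (large subunit lower 0 to 1, small subunit higher 0 to 1, shared numbers higher 1 to 2 and lower 1 to 2), the highest count, with Mrpl45 (1.23) and Mrps14 (1.07) added, coming without cortex array 1. The Mtif2 and Mtif3 contrast stayed at 0.18 to 0.25 (exact permutation p 0.0159 to 0.0317). For related lists, medians without normalization and with centring were -0.15 and 0.39 for assembly, -0.07 and 0.47 for tRNA synthetases (0 and 2 higher), 0.03 and 0.57 for mitochondrial transcription and replication (1 lower without normalization), and -0.12 and 0.41 for the respiratory chain (1 lower without normalization). The cytosolic ribosome list of 62 had a median of -0.75, 0 higher and 17 lower without normalization, where 7.49% and 23.1% of all probes were. It had 2 higher and 2 lower with centring (13.8% and 12% of all probes), and 0 higher with the offset (10.3%). Why the deposited medians differ between tissues was not tested, and no detection flag was at hand, so dim signal sets the limit for Mrpl15, Mrpl21 and Mrpl45.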
